A study of Homo sapiens with 6 samples.

Results

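The activator protein 1 (AP-1) transcription factors were examined in OVCAR3 cells, an established line of high-grade serous ovarian adenocarcinoma, after inhibition of the transcriptional kinases CDK12 and CDK13. The 8 genes were chosen by name as the FOS family (FOS, FOSB, FOSL1 and FOSL2), the JUN family (JUN, JUNB and JUND) and ATF3, and each of them has its own row among the 47577 loci of the deposited table. PolyA plus RNA was sequenced from 3 cultures that received DMSO, the solvent, and from 3 cultures that received 200 nM THZ531, a covalent inhibitor of CDK12 and CDK13, both for 6 h and both grown in RPMI medium with fetal bovine serum. The titles of the samples name THZ531, whereas the text on their treatment names the related compound THZ1, and the samples were taken as THZ531 because the titles and the study do so. The design holds 1 cell line, 1 dose and 1 time point, and it measures RNA and not protein.

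AP-1 is a dimer of basic leucine zipper (bZIP) proteins. JUN proteins pair with each other or with FOS proteins, whereas FOS proteins need a JUN partner, and the make-up of the dimer sets how strongly it activates its targets. The genes are classical targets of the MAP kinase cascades that carry growth factor and stress signals to the nucleus, and FOS, FOSB, JUN, JUNB and ATF3 are immediate-early genes with short-lived transcripts. In epithelial cancers AP-1 is known for its part in proliferation, motility and matrix remodelling.

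The libraries held between 53054048 and 70986130 reads counted on genes, with 60146046 to 70986130 in DMSO and 53054048 to 57953296 in THZ531. The epithelial identity of the cells was visible in both groups, since 12 of 12 markers of serous ovarian epithelium were expressed, among them KRT7 (mean 130310 normalized reads in DMSO and 137921 in THZ531) and EPCAM (21222 and 26194), and 1 of them, PAX8, was called down (log2 fold change -3.18). Of 7 fibroblast markers 4 were expressed, and their summed level was 1715 to 2057 normalized reads in DMSO and 3267 to 3673 in THZ531. COL1A1 (mean 995 in DMSO and 2190 in THZ531) and COL3A1 (724 and 1080) were called up. COL1A2 (37.4 and 56.7) and PDGFRA (108 and 117) were not called. DCN (mean 1.59 in DMSO and 0 in THZ531), LUM (1.15 and 0) and PDGFRB (11.5 and 9.29) were not counted as expressed. The 4 endothelial markers summed to 231 to 286 in DMSO and 308 to 420 in THZ531, with VWF and KDR called up. Of 5 leukocyte markers 2 were expressed, CD68 (mean 404 in DMSO and 410 in THZ531) and PTPRC (33.6 and 24.1), and neither was called. Their sum was 407 to 496 in DMSO and 404 to 490 in THZ531, and CD3E was at 0 in both groups. The part of these other markers in the results below was not tested.

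Promoter letters are shown because FOS, FOSB, JUN and JUNB are classically induced through elements close to their start sites, and JUND is shown beside them. RefSeq (GRCh38.p14) promoters were at hand for 7 of the 8 members (FOS, FOSB, FOSL2, JUN, JUNB, JUND and ATF3). The 150 bases before the start were searched on both strands for TGACG, the cAMP response element core, and TATAAA, the TATA box letters. They were also searched for the GC box letters GGGCGG and for TGANTCA, an element that AP-1 itself binds. Elements further upstream were not searched. In JUN the GC box shares a base with the TGACG core. The TGACG core was found in 6 of the 7 members (FOS, FOSB, FOSL2, JUN, JUNB and JUND), against 15.9% of 27305 promoters of the same length. The windows of ATF3 end at 212565406 and 212615017 on chromosome 1, while the share over all promoters took the first window of each gene. The bases directly before the reference (MANE) transcript of ATF3 were not searched, so the lack of TGACG in ATF3 covers these windows only. TATAAA was found in 3 of the 7, FOS, FOSB and JUNB, against 7.05% of all promoters. GGGCGG was found in 5 of the 7 against 36.7%, and TGANTCA in 0 of the 7 against 4.14%. Other forms of the AP-1 element were not searched, so a lack of TGANTCA is not a lack of AP-1 elements. Windows are shown 5′ to 3′ on the strand of the gene, for the pair of inducible FOS genes and the 3 JUN genes, with TGACG (or CGTCA, the same letters on the other strand) and TATAAA in capitals. FOS lies on the plus strand (chr14:75278678-75278827), as do FOSB (chr19:45467846-45467995) and JUNB (chr19:12791336-12791485), and JUN (chr1:58784048-58784197) and JUND (chr19:18281623-18281772) lie on the minus strand.
FOS: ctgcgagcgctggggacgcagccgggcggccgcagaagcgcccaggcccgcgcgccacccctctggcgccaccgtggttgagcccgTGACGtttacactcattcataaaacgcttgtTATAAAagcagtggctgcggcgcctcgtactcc
FOSB: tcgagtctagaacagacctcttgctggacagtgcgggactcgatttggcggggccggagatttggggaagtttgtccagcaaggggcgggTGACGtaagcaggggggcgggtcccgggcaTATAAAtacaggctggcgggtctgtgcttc
JUNB: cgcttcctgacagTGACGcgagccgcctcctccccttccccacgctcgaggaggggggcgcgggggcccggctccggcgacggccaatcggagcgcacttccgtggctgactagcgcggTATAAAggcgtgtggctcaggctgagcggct
JUN: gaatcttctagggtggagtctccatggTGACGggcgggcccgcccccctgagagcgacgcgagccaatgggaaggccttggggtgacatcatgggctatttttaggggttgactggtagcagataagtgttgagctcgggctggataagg
JUND: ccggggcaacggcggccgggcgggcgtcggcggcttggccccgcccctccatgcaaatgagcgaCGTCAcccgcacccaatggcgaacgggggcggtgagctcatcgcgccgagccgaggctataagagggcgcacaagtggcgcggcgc
In FOS and FOSB the TGACG begins 64 and 60 bases before the start and the TATAAA 33 and 30 bases before it, so that the pair of motifs has nearly the same layout in both genes. In JUNB the TATAAA lies 31 bases and the TGACG 137 bases before the start. A match of letters is a description and not a site of binding.

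To ask how CDK12/13 inhibition changed these genes, limma was run on log2-transformed normalized values, with 1 added to each value, for the 17568 expressed loci (10 or more normalized reads in 3 or more libraries). A normalized read is a read count divided by the size factor of its library, and it is not corrected for the length of the gene. Calls followed the thresholds of the study, 1.5-fold or more with an unadjusted p-value not above 0.05, and the Benjamini-Hochberg adjusted p of limma over all 17568 loci is given beside each value. All 8 members passed the minimum for expression. Upon treatment with THZ531, 5 of the 8 were called up (FOSB, FOS, ATF3, JUNB and JUND), against 15.7% of all expressed loci, and 1 was called down (FOSL1), against 23.9%, so that 6 of the 8 were called in either direction, against 39.5%. JUN and FOSL2 stayed under the 1.5-fold threshold. In all 8 genes the 3 THZ531 libraries did not overlap with the 3 DMSO libraries, which was also so for 71.7% of all expressed loci, and the adjusted p of limma was 0.05 or less for all 8, as it was for 68.6% of the loci. Of these 8, 7 had a log2 fold change above 0, against 34.6% of the loci, and 1 below 0, against 34.1%. In these bulk libraries a change in the number of expressing cells and a change in RNA per cell cannot be told apart.

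**Figure D1:**
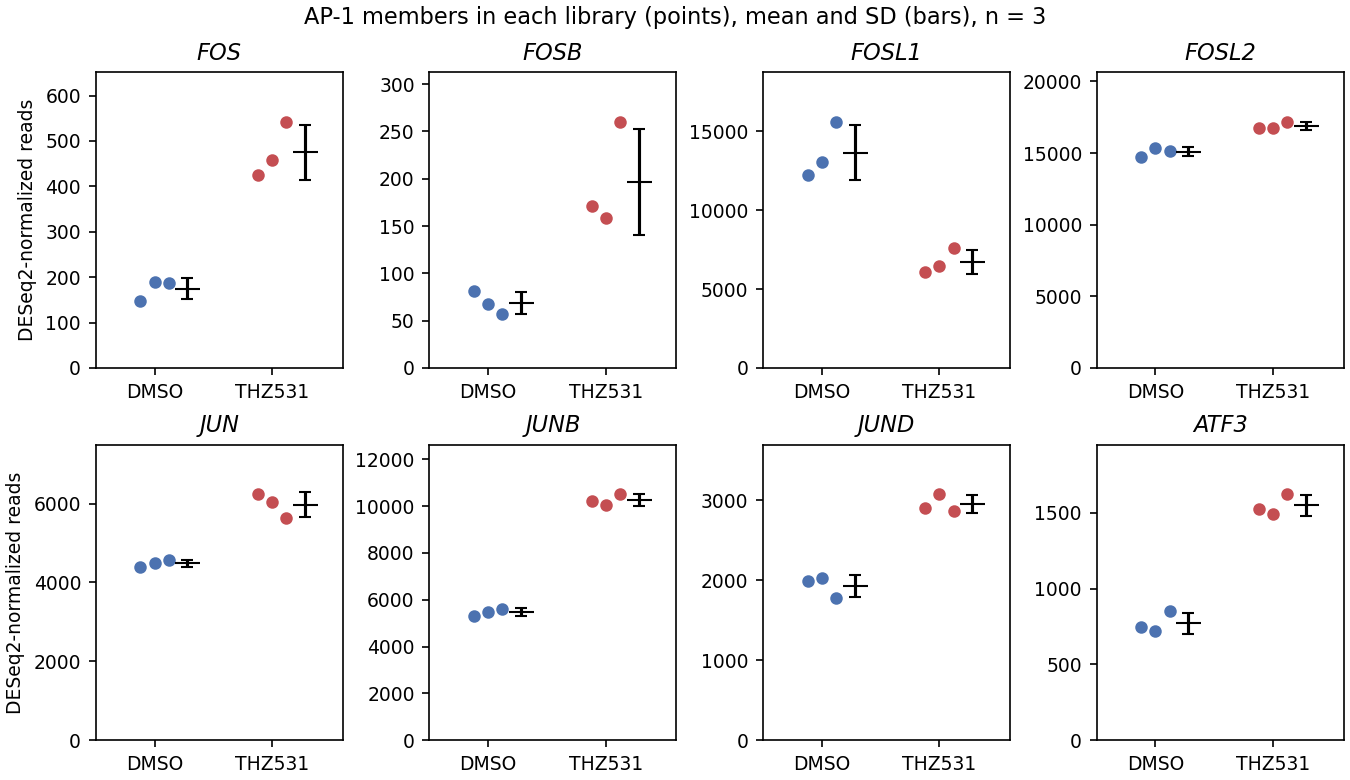
DESeq2-normalized reads (linear axes from 0, one scale per gene) of the 8 AP-1 members in each of the 3 DMSO (blue) and 3 THZ531 (red) libraries, with mean and SD beside the points. FOSL1 is the single member whose THZ531 libraries (6108 to 7584) lie below all DMSO libraries (12252 to 15630).

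FOS and FOSB, the inducible members with strong activation domains, were the least abundant and showed the largest increases. FOS was measured at 148, 189 and 187 normalized reads in the DMSO libraries and at 424, 458 and 543 in the THZ531 libraries. It rose with a log2 fold change of 1.44 (standard error 0.14, 95% confidence interval 1.15 to 1.73, adjusted p = 1.1e-07, limma), and 95.3% of the expressed loci had a lower log2 fold change. FOSB was at 81.0, 67.7 and 57.4 normalized reads in DMSO and at 171, 158 and 261 in THZ531. The third THZ531 library was the highest and widened the spread, but the lowest THZ531 value was still above the highest DMSO value. The log2 fold change of FOSB was 1.48 (standard error 0.22, 95% confidence interval 1.01 to 1.95, adjusted p = 1.8e-05, limma). These values rest on 72 to 102 reads per DMSO library and 136 to 229 reads per THZ531 library for FOSB, and on 187 to 234 and 337 to 477 reads for FOS.

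FOSL1, which encodes FRA1 and lacks the strong activation domain of FOS, moved in the opposite direction. Its normalized reads were 12252, 13092 and 15630 in DMSO and 6108, 6480 and 7584 in THZ531, so that the mean fell from 13658 ± 1759 to 6724 ± 767 (SD, n = 3). The log2 fold change was -1.02 (standard error 0.08, 95% confidence interval -1.19 to -0.85, adjusted p = 1.1e-08, limma). FOSL2, which encodes the related FRA2, had the highest mean read number of the 8 genes in both groups. It was at 14755, 15367 and 15126 normalized reads in DMSO and at 16737, 16754 and 17203 in THZ531. Its log2 fold change was 0.16 (95% confidence interval 0.093 to 0.24, adjusted p = 4.1e-04, limma), under the threshold, but became -0.079 when libraries were brought to an equal total and -0.33 when they were scaled to RPL34. Under the same scalings FOSL1 was at -1.26 and -1.51.

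Within the JUN family, JUNB rose the most. JUNB, often an antagonist of JUN on shared targets, was at 5292, 5489 and 5620 normalized reads in DMSO and at 10235, 10035 and 10528 in THZ531. The mean rose from 5467 ± 165 to 10266 ± 248 (SD, n = 3), with a log2 fold change of 0.91 (standard error 0.04, 95% confidence interval 0.83 to 0.99, adjusted p = 1.2e-11, limma), the smallest p of the 8 members. JUND, the member of the family that is expressed in most resting cells, was at 1992, 2026 and 1775 normalized reads in DMSO and at 2899, 3083 and 2871 in THZ531. Its log2 fold change of 0.61 (standard error 0.06, 95% confidence interval 0.49 to 0.74, adjusted p = 1.1e-07, limma) was just past the 1.5-fold threshold, and without DMSO replicate 3 or without THZ531 replicate 2 it was 0.55 and 0.58 and no longer called.

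JUN, the founding member and the main partner of FOS, was at 4382, 4502 and 4565 normalized reads in DMSO and at 6248, 6029 and 5636 in THZ531. All 3 THZ531 libraries were above all DMSO libraries, with a log2 fold change of 0.41 (standard error 0.04, 95% confidence interval 0.32 to 0.51, adjusted p = 5.7e-07, limma), which lies under the 1.5-fold threshold and turned to -0.081 with scaling to RPL34. ATF3, a stress-induced bZIP factor that pairs with JUN proteins, was at 745, 720 and 850 normalized reads in DMSO and at 1529, 1495 and 1627 in THZ531. It rose from a mean of 771 ± 68.9 to 1550 ± 68.6 (SD, n = 3). This is a log2 fold change of 1.01 (95% confidence interval 0.85 to 1.17, adjusted p = 5.3e-09, limma).

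The scaling of the libraries decided several of these calls. The deposited size factors placed the median of all expressed loci at -0.0071 on the log2 scale. Bringing the libraries to an equal total shifted THZ531 against DMSO by -0.24, and scaling to RPL34, the reference transcript of the qPCR assays of the study, shifted it by -0.49. FOS, FOSB and FOSL1 kept their calls under both, with log2 fold changes of 0.95, 0.99 and -1.51 under RPL34. ATF3 and JUNB kept theirs with an equal total (0.77 and 0.67) and were at 0.52 and 0.42 with RPL34, under the threshold. JUND was under the threshold with both (0.37 and 0.12).

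**Figure D2:**
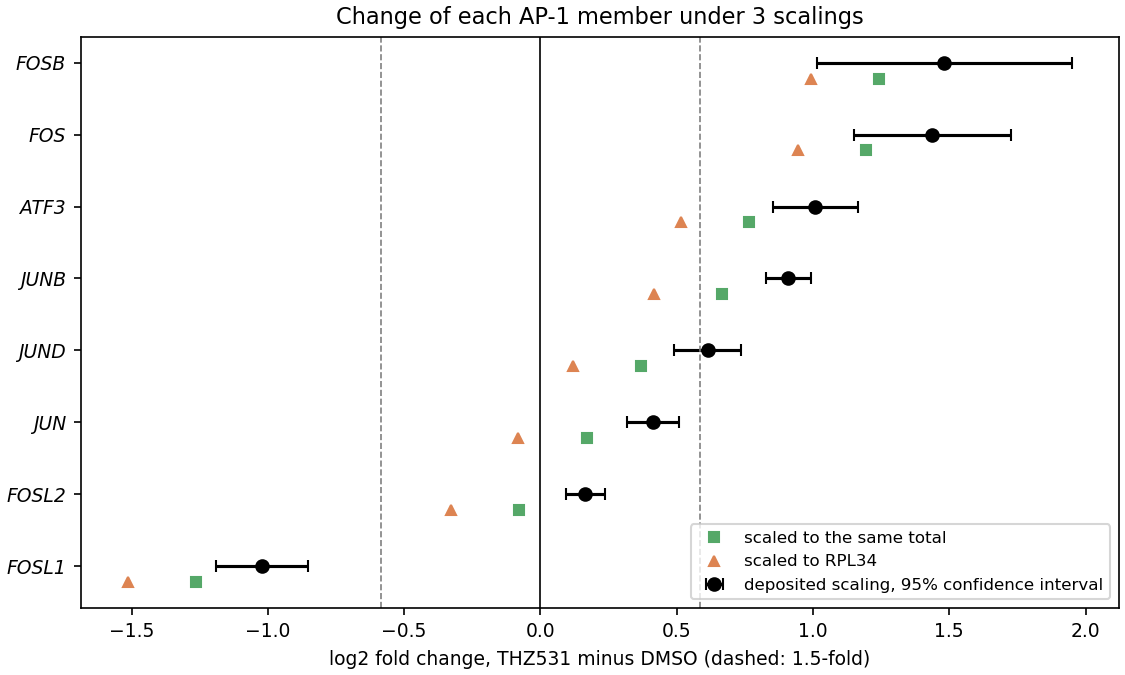
Log2 fold change (THZ531 minus DMSO) of each AP-1 member on the log2(value + 1) scale. Black points with 95% confidence intervals are the deposited scaling, green squares an equal total per library and orange triangles RPL34, and dashed lines mark 1.5-fold. FOSL2 and JUN cross 0 with the scaling, whereas FOSL1 lies below -0.85 and FOS and FOSB above 0.9 in all 3.

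Ratios between members do not depend on how a library is scaled, so the make-up of the AP-1 transcripts was compared per library. For this, each value was divided by the length of the union of annotated exons (GENCODE v44). This gives normalized reads per kilobase and allows a rough comparison of levels between genes. The counted interval and this length do not match for every member. For JUN they are 3257 and 3624 bases, and for FOS 430961 and 3186 bases. In DMSO the order of the levels was FOSL1 (7238 per kilobase), JUNB (2987), FOSL2 (2106), JUN (1237), JUND (1001), ATF3 (193), FOS (54.9) and FOSB (12.4), and the ranges of neighbours in this order did not overlap. In THZ531 JUNB came first (5610 per kilobase), followed by FOSL1 (3563), FOSL2 (2359), JUN (1648), JUND (1530), ATF3 (388), FOS (149) and FOSB (35.4), and here the ranges of JUN (1555 to 1724) and JUND (1489 to 1598) overlapped, which they did not with the length of the MANE transcript (1730 to 1918 for JUN).

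With the deposited scaling, the summed level of the 8 members was 14829 ± 1012 normalized reads per kilobase in DMSO and 15282 ± 489 in THZ531 (SD, n = 3), and the groups overlapped. Unlike the ratios, this sum depends on the scaling. An equal total per library shifts THZ531 against DMSO by -0.24 on the log2 scale, and RPL34 shifts it by -0.49. Within this sum the share of FOSL1 was 46.6% to 52.0% in the DMSO libraries and 21.7% to 25.4% in the THZ531 libraries, whereas that of JUNB was 19.3% to 20.8% and 36.3% to 37.4%. The mean share of FOS was 0.370% in DMSO and 0.974% in THZ531, and that of ATF3 1.30% and 2.54%. With the length of the MANE transcript in place of all exons these shares were 0.514% and 1.36% for FOS and 2.46% and 4.84% for ATF3, so that the shares of these genes depend on the length taken. The ratio of the FOS family to the JUN family was 1.68, 1.73 and 1.99 in DMSO and 0.651, 0.680 and 0.755 in THZ531. Without FOSL1, the ratio of FOS, FOSB and FOSL2 to the JUN family was 0.413 to 0.419 in DMSO and 0.284 to 0.298 in THZ531. The ratio of FOSL1 to JUNB was 2.42 ± 0.24 in DMSO and 0.635 ± 0.060 in THZ531 (SD, n = 3). JUNB also gained on JUN, from a ratio of 2.41 ± 0.023 to 3.41 ± 0.25, while the ratio of FOSB to FOS (0.177 to 0.313 in DMSO and 0.198 to 0.275 in THZ531) overlapped between the groups. These ratios were formed after the values of the members were seen and are given without a test.

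**Figure D3:**
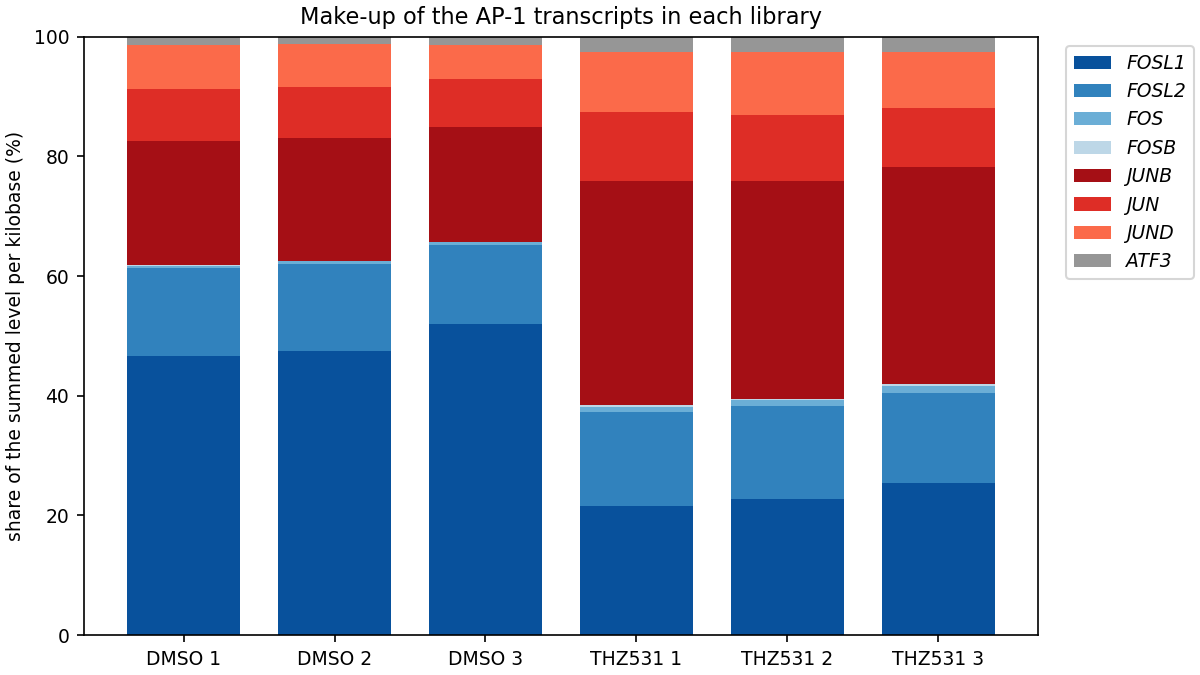
Share of each AP-1 member (%) in the summed normalized reads per kilobase of exon, for each library. FOS family members are blue, JUN family members red and ATF3 grey, and FOSL1 takes 46.6% to 52.0% in DMSO and 21.7% to 25.4% in THZ531.

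The members differ in gene structure. JUN, JUNB and JUND each have 1 exon in their MANE transcripts and span 3257, 1830 and 1929 bases, whereas FOS, FOSB, FOSL1, FOSL2 and ATF3 each have 4 exons and span 3403, 7184, 8340, 24460 and 12015 bases. Among 13246 expressed genes with a MANE transcript, 33.9% of the 327 genes with 1 exon were called up and 22.3% down. Among 2451 genes with 2 to 4 exons the shares were 16.3% and 26.2%, and among 10468 genes with 5 or more exons 11.3% and 22.1%. By span, 19.1% of the genes under 5 kb were called up and 16.2% down. The shares were 9.98% and 23.9% from 5 to 20 kb, and 13.0% and 23.6% over 20 kb. Of the members with 4 exons, FOS, FOSB and ATF3 were called up, FOSL1 was called down and FOSL2 was not called. Of those with 1 exon, JUNB and JUND were called up and JUN was not called. The part of gene structure in the changes of the members was not tested.

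The locus counted as FOS needs a limit of its own. On hg38 the FAST DB interval of FOS runs from 75278828 to 75709788 on the plus strand of chromosome 14, which is 430961 bases, while the GENCODE gene ends at 75282230 and is 3405 bases long. The interval overlaps 8 other expressed loci, among them JDP2, FLVCR2 and TTLL5 on the same strand. FLVCR2, which encodes a membrane transporter, rose from 567 ± 33.7 to 1356 ± 95.2 normalized reads (log2 fold change 1.26, adjusted p = 7.5e-10, limma), and a locus without a symbol inside JDP2 rose from 465 ± 31.0 to 1661 ± 137 (1.83, adjusted p = 1.6e-11, limma). JDP2, a bZIP repressor of AP-1, fell from 4668 ± 324 to 3029 ± 157 (-0.62, adjusted p = 5.3e-08, limma), and the other loci of the interval had log2 fold changes from -0.94 to 1.61. The exons that the authors counted for FOS are not given in the sources used here, so the part of these loci in the value of FOS was not tested.

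**Figure D4:**
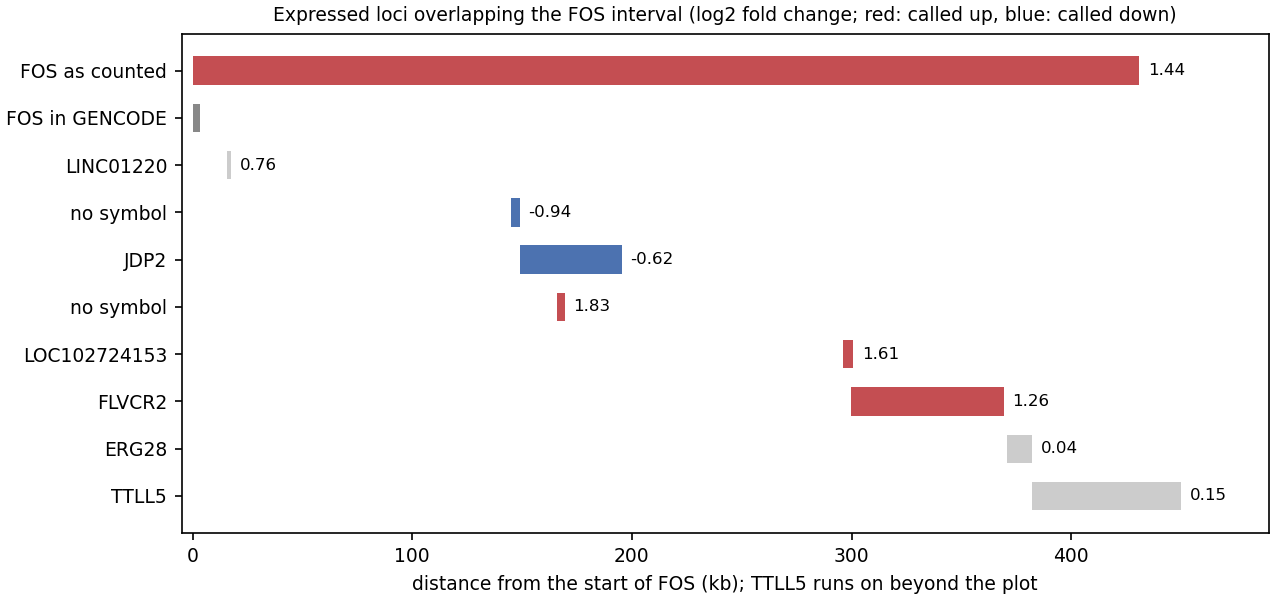
Expressed loci that overlap the interval counted as FOS, drawn to scale by their distance from the start of FOS (kb), with the GENCODE gene for comparison and the log2 fold change (THZ531 minus DMSO) of each locus beside its bar. Red bars were called up, blue bars called down and light grey bars not called, and the GENCODE gene covers the first 3405 bases of an interval of 430961.

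The other members were counted over intervals that match the annotation more closely. FOSB (chromosome 19, 45467995 to 45475179) lies inside the interval of ERCC1 on the opposite strand, which was at 908 ± 35.9 and 872 ± 22.7 normalized reads and was not called. FOSB itself was lower, at means of 68.7 in DMSO and 197 in THZ531. How counting used strand is not known here, and the part of ERCC1 in the value of FOSB was not tested. JUND (chromosome 19, 18279694 to 18281622) is overlapped by a locus without a symbol of 23.5 ± 7.5 and 34.4 ± 7.0 normalized reads, and by a longer one of 55.6 ± 23.0 and 63.8 ± 18.9, both not called. JUND itself was at 1931 ± 136 in DMSO and 2951 ± 115 in THZ531, and the part of these loci in its value was not tested. JUN (chromosome 1, 58780791 to 58784047), JUNB (chromosome 19, 12791475 to 12793315), FOSL1 (chromosome 11, 65892019 to 65900545) and ATF3 (chromosome 1, 212565407 to 212620776) overlap no other locus of the table. FOSL2 (chromosome 2, 28392800 to 28417317) overlaps FLJ31356, which was at 24.8 ± 13.9 and 4.6 ± 2.9 normalized reads. FLJ31356 was called down (log2 fold change -2.26, adjusted p = 0.0049, limma). Within 10 kb of FOSL1, CCDC85B (384 bases away) had a log2 fold change of 0.38 and FIBP of 0.12, and neither was called.

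Genes around AP-1 were examined with 5 lists, whose counts stand beside 15.7% called up and 23.9% called down among all expressed loci. Of 18 other bZIP genes that can partner or compete with AP-1, 16 were expressed, 4 were called up (25%) and 6 down (37.5%), with a median log2 fold change of -0.18 against -0.0071 over all expressed loci. Of the small MAF genes, which lack an activation domain, MAFF rose from 1984 ± 187 to 3823 ± 350 normalized reads (log2 fold change 0.95) and MAFK from 1918 ± 107 to 3114 ± 76.9 (0.70), while MAFG (0.34) was not called. DDIT3 (-1.51), the stress factor CHOP, CREB5 (-1.14), a bZIP partner of JUN, and NFE2L2 (-0.76), the antioxidant regulator NRF2, fell. Of these 5 genes CREB5 had the highest adjusted p (1.0e-05, limma).

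Upstream of AP-1, 26 of 27 genes of the MAP kinase cascade were expressed, and 3 were called up (11.5%) and 5 down (19.2%), both below the shares of all loci (median log2 fold change 0.066). With edgeR 1 of them was called up, and all 3 lost their calls with an equal total per library and with RPL34. MAPK8, which encodes the JUN kinase JNK1, rose from 921 ± 17.5 to 1602 ± 84.0 normalized reads (log2 fold change 0.80), and MAP2K6 (0.61), a kinase of p38, was also called up, a call that was lost with edgeR (0.58) and without DMSO replicate 3 (0.46). MAP3K11 (-1.26) and MAPK7 (-1.23), encoding a JNK pathway kinase and ERK5, and RPS6KA2 (-0.87), a ribosomal S6 kinase, were called down. Of 16 factors that act at the promoters of FOS and JUN, all 16 were expressed, with 4 called up (25%) and 5 down (31.2%), and a median log2 fold change of 0.14. CREB1, a factor of the cAMP response element, fell from 800 ± 46.2 to 165 ± 41.1 normalized reads. Its log2 fold change was -2.30 (standard error 0.14), and its binding at the promoters printed above was not tested. MRTFB (-1.27), a coactivator of SRF, and the ternary complex factor ELK3 (-1.11) fell as well. The acetyltransferase genes CREBBP (0.83) and EP300 (0.66) and the factor MEF2D (0.79) were called up.

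Of 17 genes of mRNA decay and protein turnover, all 17 were expressed, and 1 was called up (5.88%) and 2 down (11.8%), both below the shares of all loci (median log2 fold change 0.0084). ZFP36L2, which promotes the decay of AU-rich transcripts, rose from 12787 ± 862 to 20807 ± 584 normalized reads (log2 fold change 0.70). PAN2, a poly(A) nuclease, fell from 546 to 145 (-1.92, standard error 0.13), and DET1, a subunit of the ligase that degrades JUN, fell from 194 ± 34.3 to 23.9 ± 15.3 (-3.14). Of 42 genes known as AP-1 targets, 38 were expressed, 10 were called up (26.3%) and 4 down (10.5%), and 29 had a log2 fold change above 0 (76.3%, against 49.7% of all expressed loci), with a median of 0.37. That median is smaller in size than the shift of -0.49 under scaling to RPL34, which moves all loci of a library alike. The gap between the median of the targets and that of all expressed loci (-0.0071) therefore hardly depends on the scaling, whereas the calls do. Of these targets 4 were called up and 5 down with an equal total per library, and 4 up and 8 down with RPL34. Over all expressed loci 1623 were called up and 5643 down with an equal total, and 1032 up and 7573 down with RPL34. With an equal total 8 genes over all 5 lists were called up, against 22 with the deposited scaling. HMOX1, the heme oxygenase of the stress response, rose from 178 ± 40.0 to 612 ± 36.5 normalized reads (1.79), the matricellular gene CCN2 from 2226 ± 100 to 6618 ± 154 (1.57) and the cytokine IL6 from 473 ± 39.2 to 1165 ± 184 (1.29). The EGFR ligand TGFA fell from 5766 ± 200.0 to 2474 ± 134 (-1.22) and the integrin gene ITGA2 from 1857 ± 138 to 1203 ± 102 (-0.63), although ITGA2 was no longer called without DMSO replicate 1 or without THZ531 replicate 1 (-0.58 in both). With an equal total per library MAFK, MAPK8, MAP2K6, MEF2D, EP300 and ZFP36L2 lost their calls, and with RPL34 MAFF and CREBBP did as well, whereas HMOX1, CCN2 and IL6 kept theirs under both. All SDs in these lists are over n = 3 libraries.

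**Figure D5:**
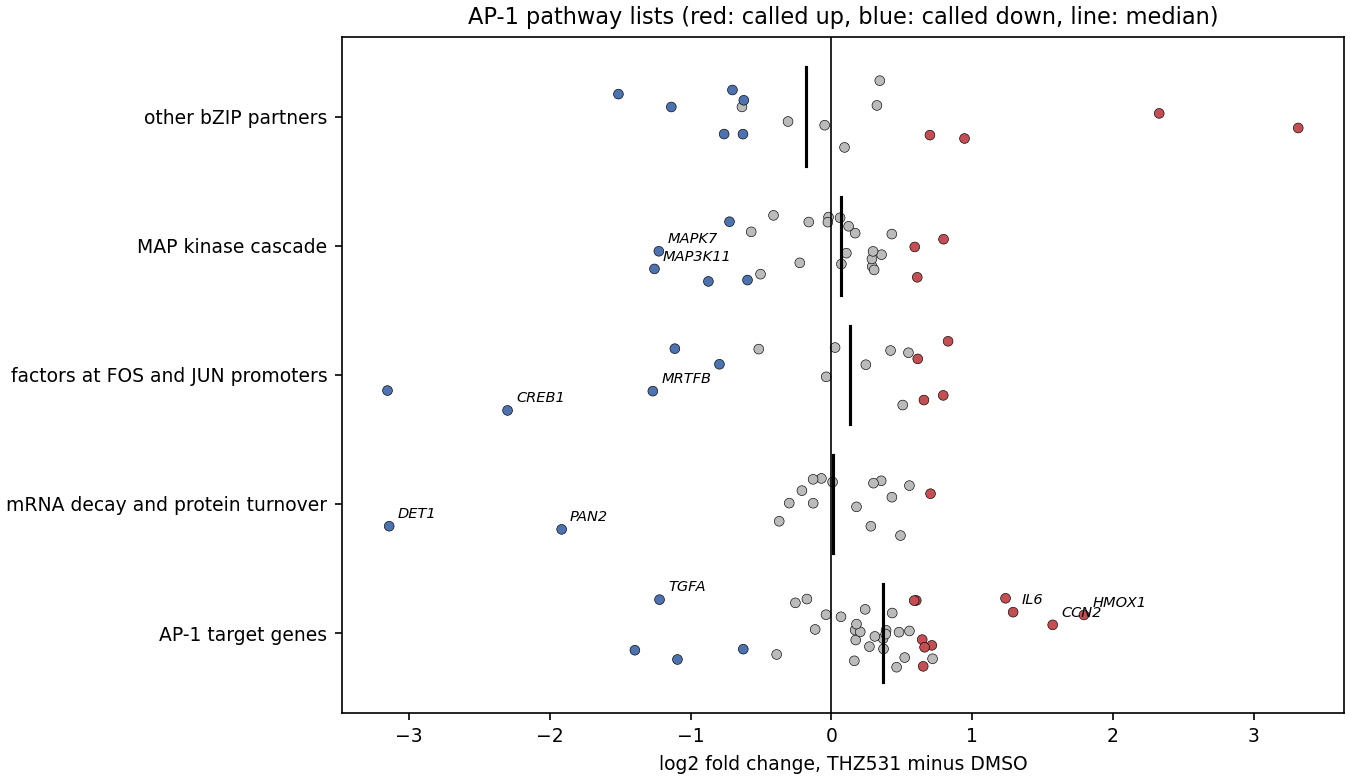
Log2 fold change (THZ531 minus DMSO) of each expressed gene in the 5 lists around AP-1, spread vertically for legibility, with the median of each list as a line. Red and blue points were called up and down and grey points were not called. With the deposited scaling the AP-1 target genes have the highest median, 0.37.

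The genes with the nearest profile over the 6 libraries, by Euclidean distance of centred log2 values among 11838 genes with a mean of at least 100, were CYP26A1 for FOS (distance 0.20), PDE4D for FOSB (0.38), FAM185A for FOSL1 (0.11), NDUFA8 for FOSL2 (0.032), TRPC4AP for JUN (0.040), AKAP1 for JUNB (0.038), RNF10 for JUND (0.059) and H2AW for ATF3 (0.12). No AP-1 member was the nearest of another. With 6 libraries in 2 groups, this likeness describes mostly the size of the difference between the groups.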

How the data were processed

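OVCAR3 polyA plus RNA was sequenced by the authors as 150 bp paired-end reads from a stranded kit, mapped to hg38 with STAR, counted with featureCounts on FAST DB genes and normalized with DESeq2. The submitters' processing notes name STAR 2.7.5a. The deposited values are a signal, made by dividing the reads of a library by its size factor. Whole reads were recovered from the step between values (100% came out whole, tolerance 0.02 reads). The cultures are called biological repeats by the study.

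The test was limma 3.58.1 with a variance trend and no covariates (R 4.3.3), run on log2 values after adding 1, which understates the change of low genes. Loci entered with 10 or more normalized reads in 3 or more libraries. The alternatives were pseudocounts of 0.1 and 10, minima of 50 and none, 3 other scalings, a fold change of 2, the adjusted p, a replicate block, edgeR 4.0.16, DESeq2 1.42.0 and each library left out. The 8 genes and all lists were chosen with earlier results of these data known. Beside the 8, the text names up to 3 genes per list and direction (largest log2 fold change among called genes whose mean is 100 or more and whose groups are apart), loci that overlap a member or lie within 10 kb, and the gene with the nearest profile. Some genes that the rule names are not reported here. Gene structures are from GENCODE v44 and promoters from RefSeq. How counting used strand is not given in the sources used here.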

Additional observations from a re-analysis of the deposited data

How the results depend on the processing

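With scaling to RPL34, 2 members were called up in place of 5, FOSL2 and JUN turned to log2 fold changes of -0.33 and -0.081, and JUNB (0.42), JUND (0.12) and ATF3 (0.52) were no longer called. Over the 5 lists 6 genes were then called up and 39 down (22 and 22 with the deposited scaling), and over all expressed loci 1032 up and 7573 down (2751 and 4197). With an equal total per library, FOSL2 turned to -0.079, JUND (0.37) was no longer called, and 8 listed genes and 1623 loci were called up. By construction these scalings shift every locus of a library alike. At a fold change of 2, 3 members were called up, JUNB (0.91) and JUND (0.61) not among them, with 6 listed genes up and 13 down and 1353 loci up and 2689 down. With each library left out in turn, 4 or 5 members were called up, and the log2 fold change of JUND was between 0.55 and 0.65. The replicate numbers did not pair the libraries (correlations of deviations from -0.039 to 0.019 over 3 pairs), and with the number as a replicate block 5 members were called up and 1 down. With the length of the reference transcript in place of all exons, the ratio of the FOS to the JUN family in THZ531 was 0.752 and the mean share of ATF3 was 2.46% in DMSO and 4.84% in THZ531. FOSL1 was called down in all settings tried, and edgeR and DESeq2 called the same number of members up (5) and down (1).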

Other observations

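Some called genes of the lists were too low for the rule on named genes and were chosen here after their values were seen. MAFA, a large MAF factor, was at 3.18, 13.0 and 28.7 normalized reads in DMSO and at 149, 111 and 101 in THZ531. Its log2 fold change was 3.32 ± 0.52 (standard error, limma adjusted p = 3.2e-05). MEF2C, a relative of MEF2D, went the opposite way, with 137, 109 and 112 normalized reads in DMSO and 7.56, 17.1 and 14.8 in THZ531. Its log2 fold change was -3.15 ± 0.34 (standard error, limma adjusted p = 4.6e-07).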
